A study of Mus musculus with 18 samples.

Results

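High-count unmarked positions outside Rn45s are single genomic positions at which many RNA fragments ended in ribose oxidation sequencing (RibOxi-seq) of mouse 4T1 mammary carcinoma cells. They were taken as every row of the deposited count table that was not marked mispriming, that summed to at least 100 counts over the 9 libraries, and whose gene was not one of 9 excluded genes (Rn45s, Tex14, Arhgap21, Jarid2, Filip1l, Kcnip1, Mir6236, Spp1 and Eif4a1). The rule kept 679 of 1825851 positions, in 199 genes, and these held 1434013 counts, or 29.5% of all counts in the table. The members were thus chosen by their summed count, so their height is a description and was not tested. Just inside the threshold, with 100 counts each, were positions in Acadvl (chr11:70012484), Gphn (chr12:78350979) and Akt1 (chr12:112657268). Just outside it, with 99 counts each, were a pair of other Gphn positions (chr12:78350967 and chr12:78351039).

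The libraries came from 3 genotypes with 3 replicates each, called biologic in the study's methods: wild-type 4T1-mCh/rLuc cells (4T1 WT) and the clones Snord67KO-1 and Snord67KO-2. Both clones were grown from single cells after CRISPR editing of Snord67, so each genotype effect rests on 1 clone, and all 3 lines carry a lentiviral mCherry and Renilla luciferase construct. The RNA was poly(A)-enriched, fragmented and oxidized before ligation of a 3′ linker, and the 9 oxidized libraries are those analysed here. Total counts per library ran from 212463 to 737219, and a count of 0 allows up to 3 counts, or 4.07 to 14.1 CPM (the count scaled to the library total). Such limits cover counting error only. Inside the Snord67 gene (chr2:91596070-91596180) there was 1 count over all libraries, in Snord67KO-1 replicate 1, so loss of the targeted gene could not be checked here. The 8 mammary carcinoma markers summed to between 373 and 954 CPM in every library, whereas T and B cell, macrophage, endothelial and fibroblast lists each stayed at or below 31.2 CPM. Positions marked mispriming held between 1.38% and 7.22% of the counts in 8 libraries and 17.8% in 4T1 WT replicate 2, which therefore stands apart.

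A 2′-O-methyl group (Nm) on the last ribose of a fragment blocks periodate oxidation, so protected 3′ ends remain available for linker ligation and pile up at the methylated nucleotide. Box C/D small nucleolar RNAs such as Snord67 guide the methyltransferase fibrillarin to these sites, above all in ribosomal RNA and small nuclear RNAs. A 3′ end can also be counted where a primer anneals to an RNA that resembles the linker, and reads from repeated sequence can be placed at several genomic copies.

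The bases around the positions are shown first because part of the grouping of members below rests on them. The table has no strand, so each 30-base window was read 5′ to 3′ along an annotated transcript (GENCODE M21, GRCm38) that covers the position, and the counted base is base 15, just before the capitals. Such a window was found for 203 of the 679 members. At the 377 tested positions that were marked mispriming, the commonest bases in the first 6 places after the counted base spelled CTGTAG, the start of the 3′ linker. High isolated members carried similar letters in the same place, here in capitals.
Sdha (3′ UTR, exon 15, chr13:74322436-74322465, minus strand): aaggaagacagcccaCTGTGGgcaccatca
Rps4x (coding sequence, exon 5, chrX:102186525-102186554, minus strand): aagtgagaaagatctTTGTAGgcacaaaag
Gpx1 (coding sequence, exon 1, chr9:108339435-108339464, plus strand): gaatgtcgcgtctctCTGAGGcaccacgat
Ttc39b (3′ UTR, exon 20, chr4:83224866-83224895, minus strand): cactcgctctggcctCTGTAGgcacccaaa

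Other members lay in short stretches dense with other members, most of them in introns, for which no transcript gave a window. In Lars2 the stretch lies in the last exon, which gave windows for all 34 of its members. The highest 3 are shown with the counted base in capitals. The last exon of Lars2 is known to hold sequence that resembles 28S ribosomal RNA, and the windows were not compared with rRNA here.
Lars2 (exon 21, chr9:123462146-123462175, plus strand): ttgttgccatggtaAtcctgctcagtacga
Lars2 (exon 21, chr9:123462079-123462108, plus strand): taatagggaacgtgAgctgggattagaccg
Lars2 (exon 21, chr9:123461862-123461891, plus strand): atcttgattttcagTaggaatacagaccgt
None of these 3 windows was found in an annotated transcript of another gene, whereas 6 of the 34 Lars2 windows were. The window of the Lars2 position with 23315 counts (chr9:123462069) was also in Gm15564, and that of a position with 4480 counts (chr9:123462064) in AA474408 and Gm15564.

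A few isolated members lay in annotated small RNA genes. The clearest was in an intron of Kpna4, inside the scaRNA gene Gm22009 (chr3:69085105-69085447, minus strand). Small Cajal body RNAs guide modification of spliceosomal RNAs.
Gm22009 (chr3:69085122-69085151, minus strand, counted base in capitals): cctaaactctctaaCaggattattaaacat
This position had 1215 counts, with 90, 55 and 218 in the WT libraries, 237, 105 and 192 in those of Snord67KO-1 and 44, 124 and 150 in those of Snord67KO-2. Its mean Nm score, the count at the position over the mean count of its immediate neighbors with 0 set to 1, was 102. Other members were in Snord15a (101 counts, in an intron of Rps3), the snoRNA Gm22357 (105 counts, in an exon of Gas5) and the miscellaneous RNA Gm26461 (318 counts, in Zfp949). Those in Gm22357 and Gm26461 are among the members called linker-like below. The 5 members in genes that GENCODE types as miRNA lay in the dense stretches of Zc3h7a and Peak1.

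By annotation, 492 members (72.5%) were in introns of the named gene, 98 in coding sequence, 62 in 3′ UTRs, 6 in 5′ UTRs and 7 in exons of noncoding transcripts. The gene names of the remaining 14 were not matched in GENCODE M21. Of the intronic members, 462 lay in no exon of any other gene and 20 lay in processed pseudogenes. Dense loci were defined, after the data were seen, as 5 or more members of a gene within 600 bases. There were 26 such loci, 12 to 523 bases long, with 464 members (68.3%) and 86.1% of the members' counts. The isolated members comprised 117 with linker-like sequence, 51 with other sequence and 47 without a window.

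The counts were concentrated in few positions: the 12 highest members held 31.9% of the members' counts. Of these 12, 11 are described here. The position in an intron of Rsph3b (chr17:6941958), a radial spoke protein gene, had 44406 counts in all. It had 7071, 3650 and 9282 counts in the WT libraries, 5533, 3687 and 6512 in those of Snord67KO-1 and 2269, 3595 and 2807 in those of Snord67KO-2. Scaled to the library total this was 10051 ± 4585 CPM, 8397 ± 1006 CPM and 9021 ± 2120 CPM (SD, n = 3), and the WT range enclosed those of both clones. The next were in introns of Dnah7b (chr1:46076082, 42774 counts), an axonemal dynein gene, and of Gphn (chr12:78351014, 39704 counts), which encodes the scaffold protein gephyrin. After these came the 3 Lars2 positions shown above, with 37549, 34677 and 34248 counts. Lars2 encodes the mitochondrial leucyl-tRNA synthetase. The remaining 5 of the 12 were in introns of Zfp185 (chrX:73026686, 29321), Gnb1l (chr16:18533210, 26487), Il31ra (chr13:112578189, 25843), Cd44 (chr2:102829379, 25548) and 4933404O12Rik (chr5:136932984, 24798).

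**Figure D1:**
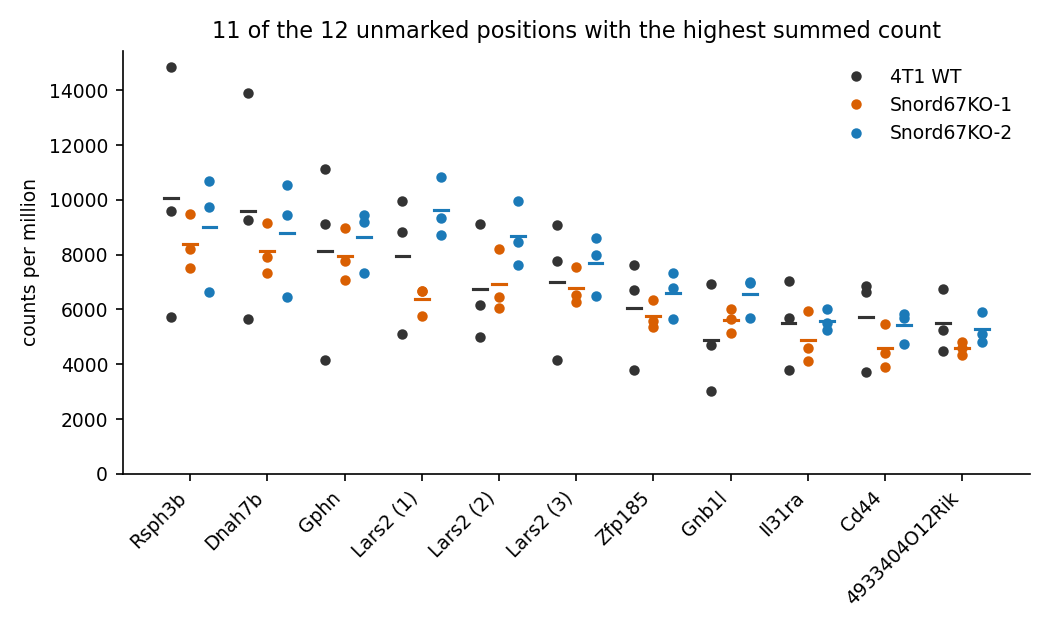
Counts scaled to the library total (CPM) at 11 of the 12 members with the highest summed count (linear axis). Each point is a library, bars are means of 3 replicates, and the 3 Lars2 positions are numbered by their summed count. Rsph3b has means of 10051, 8397 and 9021 CPM in the order of the legend (4T1 WT first), and the WT replicates have the largest SD at all 11 positions.

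The lowest of the 3 WT values at Rsph3b was that of replicate 2. None of these positions passed an adjusted p of 0.05 in any genotype contrast. With both clones averaged and set against WT, edgeR's quasi-likelihood test gave Rsph3b a log2 fold change of 0.04 ± 0.34 (SE) with an adjusted p of 0.983. The Lars2 position at chr9:123462093 had 3691, 3930 and 5692 counts in the WT libraries, 4083, 3177 and 5646 in those of Snord67KO-1 and 2119, 3118 and 3221 in those of Snord67KO-2. Its log2 fold change was 0.47 ± 0.27 (SE, edgeR adjusted p = 0.52).

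Taken locus by locus, Lars2 had the highest sum, 160492 counts on 34 members within 337 bases, and other high sums were those of Camk1d (106467 on 21), Il31ra (98616 on 19) and Rsph3b (92091 on 10). The distribution within a locus differed: 1 position held 63.0% of the Gphn locus, but the highest position of Camk1d held 21.3%. The Lars2 locus was at 32874 ± 7695 CPM in the WT libraries, 30657 ± 2913 in those of Snord67KO-1 and 38434 ± 3950 in those of Snord67KO-2 (SD, n = 3). In single libraries it ran from 24692 CPM in 4T1 WT replicate 2 to 41687 CPM in Snord67KO-2 replicate 1, so the WT range enclosed the Snord67KO-1 range and overlapped that of Snord67KO-2. The Gnb1l locus stood at 11750 ± 3018, 12423 ± 527 and 15121 ± 957 CPM in the same order. Zc3h7a and Peak1, the loci with most members (58 and 59), had far lower sums, 17349 and 17581 counts.

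Nm scores differed between the kinds of member. Over all members the median of the mean Nm score was 6.73, with 232 members under 2 and 301 over 10. In dense loci the median was 2.09. In isolated members it was 17.7 with linker-like sequence, 16.2 with other sequence and 25.0 without a window. Dense loci were defined by members lying close together, and the score divides by neighboring counts. The lower median of dense loci is therefore not independent of their definition. Members of dense loci spanned from 0.00611 to 2075. Over all kinds, the 3 highest were those of Dnah7b chr1:46076082 (2075), 4933404O12Rik chr5:136932984 (1858) and Rsph3b chr17:6941958 (1822). At such scores the neighbors hold few counts, so small changes in them move the score. The Dnah7b and Rsph3b rows differ by 3.74%, as given below, so their scores are not separate measurements. At Dnah7b the score was 1657 ± 366 in the WT libraries, 2388 ± 286 in those of Snord67KO-1 and 2179 ± 629 in those of Snord67KO-2 (SD, n = 3), and the lowest single library was at 1241 and the highest at 2725.

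**Figure D2:**
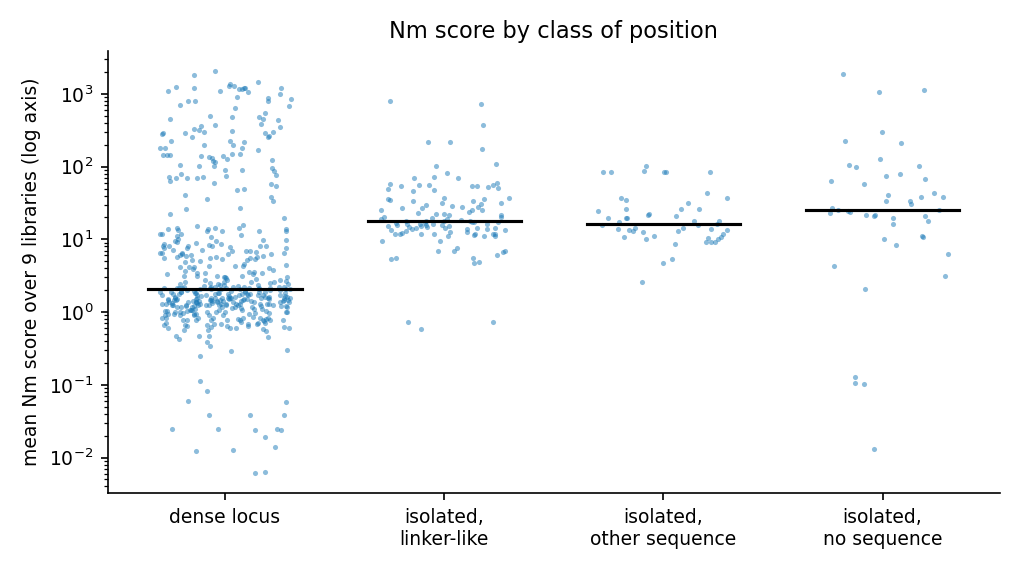
Mean Nm score over the 9 libraries (log axis) of each member, by kind of position; horizontal bars are medians. The medians are 2.09 in dense loci, 17.7 in isolated linker-like members, 16.2 in isolated members with other sequence and 25.0 in isolated members without a window.

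Linker-like letters were measured as matches of the 6 bases after the counted base to CTGTAG, in the sense of the transcript. At least 4 of 6 matched at 83 of the 203 members with a window (40.9%), and the share was 48.2% of 168 in isolated members and 5.71% of 35 in dense loci. Of these 35 windows, 34 were in Lars2 and 1 in Zc3h7a, so the dense-locus share does not describe the other dense loci. Among the 377 marked positions tested the share with at least 4 of 6 was 99.5%. Among 31152 unmarked positions on chromosome 19 with a single count it was 3.77%. It was 33.6% among the 146 unmarked positions with a window that were tested but summed to under 100 counts. All 6 matched at 3 members, in Ttc39b (shown above), Zfp949 and Rock1. Within the 15 bases after the counted base, the letters GCACC were in 66 isolated members (39.3%), and in 32.5% of all members with a window. They were in 25.7% of the marked, 22.6% of the tested unmarked positions under 100 counts and 1.35% of the single-count positions. GCACC was searched on the transcript strand only and was chosen after the windows were seen, and its letters can lie next to those of CTGTAG, as in Sdha and Ttc39b. A member with either feature is called linker-like here, which holds for 69.6% of isolated members with a window. Over all members with a window the share was 58.6%, beside 45.9% of the tested unmarked positions under 100 counts. That lower set was not limited to isolated positions, so the figure over all members is the like comparison. The base after the counted one was C in 83.3% of isolated members and 72.9% of all members with a window. It was C in 65.1% of the tested unmarked positions under 100 counts and in 24.9% of single-count positions.

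**Figure D3:**
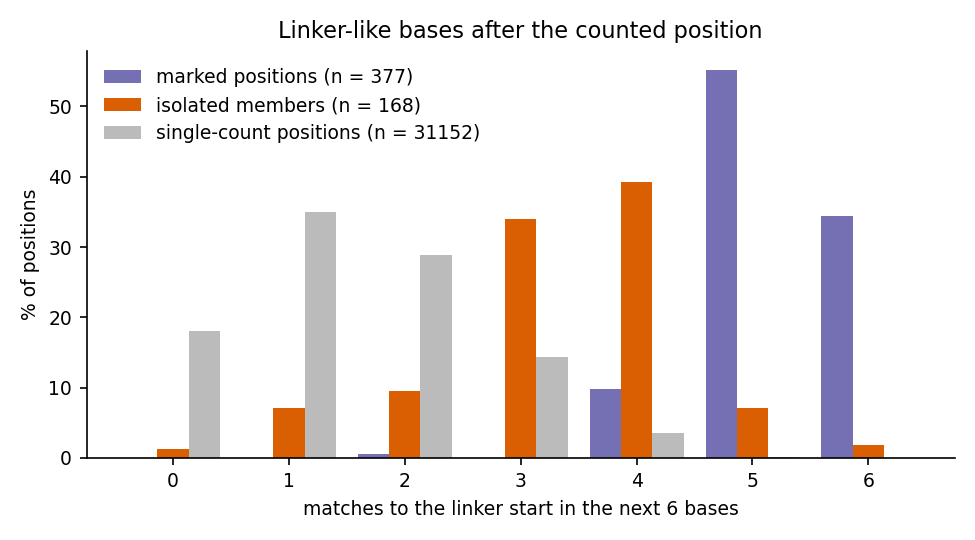
Share of positions (%) by the number of the next 6 bases that match the start of the linker, for marked positions, isolated members with a window and unmarked chromosome 19 positions with 1 count. At least 4 of 6 match in 99.5%, 48.2% and 3.77%.

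Linker-like letters could be looked for only where an annotated transcript gave a window, so the place of these members in exons follows from the method. Of the 117, 64 were in coding sequence, 27 in 3′ UTRs and 6 in 5′ UTRs, and 14 lay in a processed pseudogene. Ribosomal protein genes had 16 members in 13 genes, 12 of them linker-like, among them Rps4x (3296 counts) and Rpl34 (989). Rps4x had 513, 1151 and 139 counts in the WT libraries, 520, 626 and 69 in those of Snord67KO-1 and 24, 65 and 189 in those of Snord67KO-2. The highest count of both genes was in 4T1 WT replicate 2, and the 3 genotypes overlapped at Rps4x. One position made up 54.0% of all counts in Rps4x. Linker-like members in other genes included Sdha (3380 counts), a subunit of succinate dehydrogenase, and Gpx1 (1565), a glutathione peroxidase. Sdha had 224, 1087 and 269 counts in the WT libraries, 564, 679 and 214 in those of Snord67KO-1 and 54, 115 and 174 in those of Snord67KO-2.

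Translation factors and their companions had 11 members in 5 genes, among them Npm1 (chr11:33156692, 627 counts), Eef1a1 (chr9:78480311, 423) and Eef2 (chr10:81179092, 262). Chaperones had 3 (Pdia6, Hspd1 and Hspa8, with 202, 157 and 125 counts), the cytoskeleton 2 (Actg1 and Cfl1, 191 and 149), keratins 2 (both Krt18, 299 and 112), ferritin 1 (Fth1, 156) and glycolysis 1 (Tpi1, 148). The matrix, secreted and lysosomal list had 43 members, of which 39 were intronic in Cd44, Itga9 and Col6a6. The other 4 were Timp2 and Ctsd (183 each) and a pair in Fn1 (119 and 111). No member was in the lists of the mitochondrial genome, small noncoding RNAs, chromatin, or S100 proteins and annexins. By edgeR's test on counts no member of these lists passed an adjusted p of 0.05 in any contrast, whereas DESeq2 called Fth1 and 2 Cd44 positions, given below.

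Count rows recurred among the members. In 16 groups, 35 members had exactly the same counts in all 9 libraries as another member. Not all of these groups are described here. Positions in Npas2 (chr1:39324822), Mrap (chr16:90746395) and Park2 (chr17:11613565), on 3 chromosomes, had the same 195 counts. Each had 29, 26 and 14 in the WT libraries, 30, 19 and 34 in those of Snord67KO-1 and 11, 13 and 19 in those of Snord67KO-2. Further pairs were Polr1a chr6:71970932 and Hpn chr7:31101904 (225), Bnc2 chr4:84563452 and Chic1 chrX:103383142 (188), and Rpl11 chr4:136051225 and Otx2os1 chr14:48695793 (105). The last pair also shares its window, which in Otx2os1 is that of Gm48909 and is shown with the 6 bases after the counted base in capitals.
Rpl11 and Gm48909: caagaacacattgacCTGGGCatcaaatac

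A position of Kdm3b and one of Selt (chr3:58592670) had 242 counts each. The other 10 identical pairs joined Zc3h7a and Peak1, on chromosomes 16 and 9. With Peak1 read in reverse, the members of both loci could be laid over each other in 2 stretches, which are offset by 30 bases. At the 53 mirrored positions where both genes had a member, the summed absolute difference over the 9 libraries was at most 4.82% of the mean sum, with a median of 0.971%. The pairs were, with 269 counts each, chr16:11144024 and chr9:56223842, with 222 chr16:11143989 and chr9:56223877, with 164 chr16:11143964 and chr9:56223902, and with 145 chr16:11143985 and chr9:56223881. They went on with 132 counts at chr16:11144049 and chr9:56223817, 129 at chr16:11144036 and chr9:56223830, and 118 at chr16:11144257 and chr9:56223639. The last were 115 counts at chr16:11144254 and chr9:56223642, 108 at chr16:11144054 and chr9:56223812, and 104 at chr16:11144048 and chr9:56223818.

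**Figure D4:**
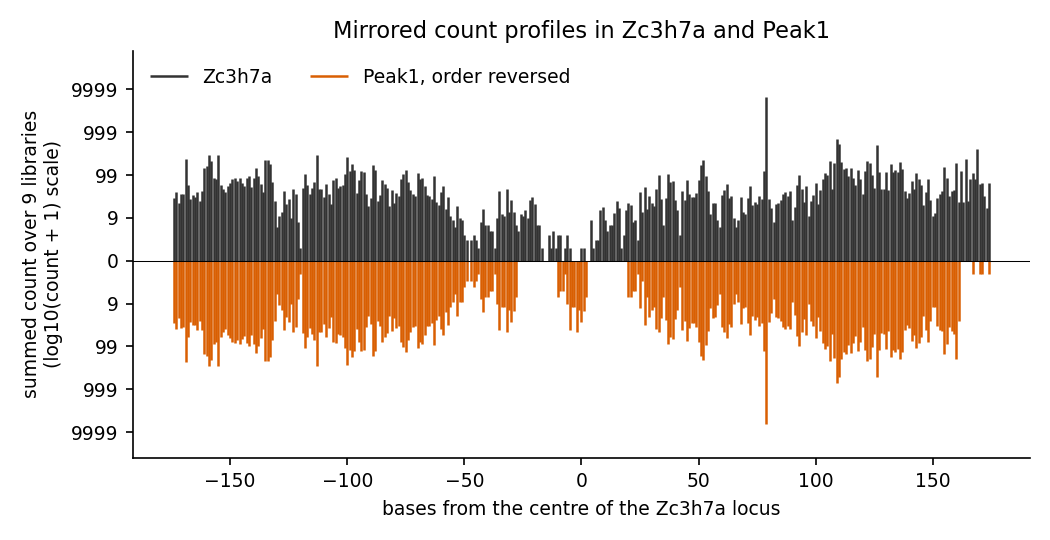
Summed count over the 9 libraries at each position (log10(count + 1) scale), upward for the Zc3h7a locus and downward for Peak1 in reversed order. The x axis gives bases from the centre of the Zc3h7a members, and Peak1 was placed separately in the left and right stretches, which are offset by 30 bases. The highest position has 6637 counts in Zc3h7a and 6613 in Peak1.

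Rows that were near-identical, within 5% of the mean sum over the 9 libraries, were far more common: 167 members in 79 groups (128 in dense loci and 39 isolated). For comparison, 10906 other pairs of members whose sums were within 5% differed by a median of 49.4%. The highest position in Mphosph8 (chr14:56694102, 14559 counts) and that in Vwa3a (chr7:120754115, 14598) differed by 0.322%, and the highest of Dnah7b and Rsph3b by 3.74%. Among isolated members several pairs joined a position in an mRNA and one in another named gene. Rplp0 (832 counts) paired with 4930525G20Rik (870), Rpl32 (752) with Gm6251 (742), Actg1 (191) with 9330111N05Rik (188) and Eef2 (262) with Sfi1 (260). Rps3a1 (chr3:86139137, 767 counts) and the Gm13408 pseudogene in an intron of Mapkap1 (chr2:34565469, 785) shared this window.
Rps3a1 and Gm13408: gaaagacatcctatgCGCAGCaccagcaag
Outside the members, 12 members of D130009I18Rik had a near-identical row in Filip1l, 9 in Arhgap21 and 4 in Jarid2, and 2 members of Gnb1l had one in Rn45s. The higher of these Gnb1l members was chr16:18533210, among the 12 highest of all, with 26487 counts against 26838 in Rn45s. Members that share a row are not separate measurements, so counts of members below count some rows more than 1 time.

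The genotype contrasts asked whether ends at these positions differed with loss of Snord67. A position was tested if 3 or more libraries had 10 or more counts there, which 673 members and 2092 positions in all met. The 6 others were not. By count, edgeR's quasi-likelihood test called 0 members in any of 4 contrasts, namely both clones averaged against WT, each clone against WT, and one clone against the other. Over all positions tested, 0.0478% were called in each of the first 3 contrasts and 0% in the last. At an unadjusted p under 0.05, 10 members were higher and 42 lower in the clones on average, against 2.77% and 6.64% of all tested positions. For Snord67KO-1 these were 9 and 7 (2.1% and 1.34% of all), for Snord67KO-2 19 and 55 (3.73% and 8.6%), and between the clones 10 and 7 (0.86% and 1.63%). Without 4T1 WT replicate 2 the average contrast gave 30 higher and 27 lower. DESeq2 called 3 members on average (0.669% of all positions), 1 in Snord67KO-1 (0.621%), 6 in Snord67KO-2 (1.15%) and 1 between the clones (0.0478%). These shares are over all 2092 positions, of which DESeq2 gave no adjusted p to 1339, 285, 1461 and 1, in the same order. On simulated counts, edgeR's test recovered 24% of 200 positions changed 4-fold among 2092 in the average contrast.

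Relative to the rest of the gene, edgeR called 0 of 663 members in all 4 contrasts, and by Nm score limma called 0 of 673. Over all positions tested, 0% were called in each contrast by either measure. At an unadjusted p under 0.05, 13 members were higher and 87 lower than the rest of their gene in the average contrast, against 1.51% and 15.9% of all tested positions. For Snord67KO-1 these were 6 and 20 (0.926% and 4.44% of all), for Snord67KO-2 24 and 85 (2% and 15.3%), and between the clones 14 and 6 (1.02% and 1.07%). By Nm score 3 members were higher and 52 lower in the average contrast, against 0.956% and 11.7% of all. In Snord67KO-1 these were 4 and 14 (1.1% and 1.96%), in Snord67KO-2 6 and 102 (1.29% and 21.5%), and between the clones 4 and 30 (0.908% and 6.21%). Lower scores thus outnumbered higher ones among members and among all positions alike. The score sets 0 to 1, so it can fall with library depth where the neighbors have no counts. Without Snord67KO-2 replicate 1, the library of lowest depth, 6 members were higher and 22 lower in Snord67KO-2 by Nm score. Over all 2092 positions these were 31 and 171. The part that depth has in the lower scores was not tested.

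The members with the smallest p on average were in Dnah7b, Fth1 and Myo5a. An intronic Dnah7b position (chr1:46075964) had 38, 48 and 10 counts in the WT libraries, 3, 10 and 6 in those of Snord67KO-1 and 1, 1 and 3 in those of Snord67KO-2. Scaled to the library total, Snord67KO-2 lay below all WT libraries, and the highest Snord67KO-1 library lay above the lowest WT library. The average log2 fold change was −2.30 ± 0.53 (SE, edgeR adjusted p = 0.418). Fth1, the ferritin heavy chain, had 10, 9 and 4 counts in its coding sequence (chr19:9982918) in the WT libraries, 37, 44 and 21 in those of Snord67KO-1 and 2, 8 and 21 in those of Snord67KO-2. Snord67KO-1 lay above the WT range in every library. The log2 fold change was 2.68 ± 0.61 in Snord67KO-1 (SE, edgeR adjusted p = 0.358, DESeq2 adjusted p = 0.0128). Relative to the rest of Fth1 the Snord67KO-1 value was 0.71. The myosin gene Myo5a (chr9:75222002) had 20, 79 and 9 counts, then 8, 11 and 3, then 0, 1 and 3, with an average log2 fold change of −2.52 ± 0.72 (SE, edgeR adjusted p = 0.48).

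In Snord67KO-1 the others were Tpt1 and Tor1aip2. Tpt1, which encodes translationally controlled tumor protein, had 8, 9 and 14 counts at chr14:75846737 in the WT libraries, 26, 24 and 22 in those of Snord67KO-1 and 5, 13 and 12 in those of Snord67KO-2. Scaled to the library total, every library of both clones lay above every WT library, though these are few counts. The log2 fold change of Tpt1 in Snord67KO-1 was 1.63 ± 0.46 (SE, edgeR adjusted p = 0.75). Relative to the rest of Tpt1 the Snord67KO-1 value was 0.11. An intronic position of Tor1aip2 (chr1:156044280), a torsin-interacting protein gene, had 191, 77 and 154 counts in the WT libraries, 29, 22 and 57 in those of Snord67KO-1 and 14, 21 and 50 in those of Snord67KO-2. Before scaling, both clones lay below every WT count, but the library totals differ. Scaled by library total and the TMM factors of the fit, the highest library of each clone lay above the lowest WT library. The ranges of both clones thus overlapped that of WT on the scale tested. DESeq2 gave it −1.33 on average with an adjusted p of 0.039, and edgeR an adjusted p of 0.491.

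In Snord67KO-2, and between the clones, Cd44 came first. This gene encodes a hyaluronan receptor, and the position (chr2:102829412) lies in an intron, 33 bases from the highest Cd44 member. It had 3158, 2141 and 1961 counts in the WT libraries, 1808, 1820 and 2134 in those of Snord67KO-1 and 1406, 2296 and 2266 in those of Snord67KO-2. In CPM the Snord67KO-2 libraries lay above all others. The log2 fold change against 4T1 WT was 1.03 ± 0.23 (SE, edgeR adjusted p = 0.403, DESeq2 adjusted p = 0.000157). Between the clones it was 0.88 ± 0.22 (SE, edgeR adjusted p = 0.878, DESeq2 adjusted p = 0.0241). A neighboring Cd44 position (chr2:102829384) had 86, 82 and 93 counts, then 109, 63 and 84, then 70, 92 and 120, and a log2 fold change of 1.38 ± 0.38 in Snord67KO-2 (SE, edgeR adjusted p = 0.403, DESeq2 adjusted p = 0.000803). DESeq2 also called it on average (adjusted p = 0.0479). The highest Cd44 position had an average log2 fold change of 0.07 (edgeR adjusted p = 0.954).

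Between the clones, Csf3 (chr11:98703251), the granulocyte colony-stimulating factor gene, and Gnb1l (chr16:18533231) followed Cd44. Csf3 had 23, 54 and 4 counts in the WT libraries, 10, 12 and 0 in those of Snord67KO-1 and 9, 40 and 76 in those of Snord67KO-2. The log2 difference was 3.06 ± 1.07 (SE, edgeR adjusted p = 0.878), and relative to the rest of Csf3 it was −0.28. Gnb1l had 79, 68 and 68 counts in the WT libraries, 64, 39 and 51 in those of Snord67KO-1 and 39, 81 and 69 in those of Snord67KO-2, with a log2 difference between the clones of 1.11 ± 0.39 (SE, edgeR adjusted p = 0.878).

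DESeq2 also called, in Snord67KO-2, positions in Il31ra, Mphosph8, Gnb1l and Ddx19b, which are named here because of that call. The Gnb1l position (chr16:18533231) was higher, with a DESeq2 log2 fold change of 1.09 (adjusted p = 0.019). It has a near-identical row in Rn45s (558 against 540 counts). The other positions were lower. Il31ra (chr13:112578223) had 255, 345 and 65 counts in the WT libraries, 69, 106 and 15 in those of Snord67KO-1 and 5, 11 and 26 in those of Snord67KO-2. Mphosph8 (chr14:56694017) had 257, 365 and 50, then 60, 110 and 20, then 5, 11 and 22. In both, every Snord67KO-2 count was below the lowest WT count, and in both the highest library was 4T1 WT replicate 2. Their coordinates differ by 55884206, as do those of a near-identical pair of these genes (chr13:112578247 and chr14:56694041). Their rows are also similar, so these calls may not be separate measurements. Their DESeq2 log2 fold changes were −2.85 and −2.98 (adjusted p = 0.0339 and 0.0289). The RNA helicase gene Ddx19b (chr8:111010835) had 180, 390 and 14 counts, then 51, 83 and 7, then 2, 0 and 13, with a DESeq2 log2 fold change of −4.23 (adjusted p = 0.0492).

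The shares of the kinds of member varied between libraries. Dense loci took 29.6%, 20.8% and 31.5% of the counts in the WT libraries, 22.6% ± 1.7 (SD, n = 3) in Snord67KO-1, and 28.2%, 27.5% and 25.1% in the replicates of Snord67KO-2. Linker-like isolated members took 0.912%, 3.26% and 0.600%, then 1.11%, 1.74% and 0.291%, then 0.293%, 0.493% and 0.953%. Marked positions took 5.08%, 17.8% and 2.57%, then 4.95%, 7.22% and 1.43%, then 1.38%, 2.06% and 3.46%. Replicate 2 of 4T1 WT was thus the lowest library for dense loci and the highest for the linker-like members and the marked positions. It held the highest CPM of 99 of the 117 linker-like members and of 68 of the 464 dense-locus members. The sum that chose the members includes this library, so these numbers describe the chosen positions and are not a test.

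**Figure D5:**
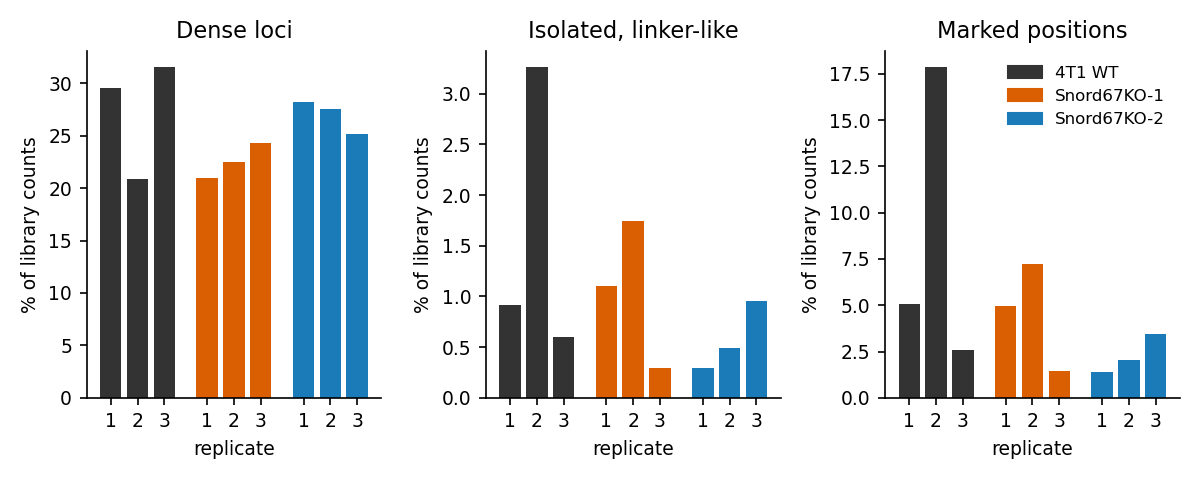
Share of each library's counts (%) in dense-locus members, in isolated linker-like members and at marked positions, by genotype and replicate. Replicate 2 of 4T1 WT has 20.8%, 3.26% and 17.8%, and the y axes differ between panels.

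The median log2 fold change of the average contrast was 0.01 in dense loci and −0.96 in linker-like isolated members, beside −0.17 over all positions tested. Without 4T1 WT replicate 2 the dense-locus and linker-like medians were −0.12 and 0.19, so the sign of both turned. The median over the 1764 positions that passed the filter without it was −0.007, so this reference moved as well. In Snord67KO-2 the linker-like median was −1.39, and −0.36 without that library. The members were chosen by a sum that includes 4T1 WT replicate 2, so these medians are not independent of that choice. The part that the share of marked positions has in these values was not tested. All members together took 32.0% ± 4.4 of the counts in the WT libraries, 26.4% ± 1.4 in those of Snord67KO-1 and 30.5% ± 1.3 in those of Snord67KO-2 (SD, n = 3).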

How the data were processed

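The authors trimmed adapters and the 3′ linker with cutadapt, merged read pairs with pear, and aligned them to the genome index also used for mRNA-seq, or to U6 and rRNA. STAR and the build mm10 are named in the submitters' processing notes, while the methods name m39 for the mRNA-seq reads. The deposited values are raw counts of 3′ read ends at each base of the genome. Treatment of multiply mapped reads and duplicates and the meaning of the mispriming mark are not given in the sources used here. The 9 control libraries were not analysed here.

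The members, gene lists and classes were chosen with earlier results of these data known. Positions were annotated with GENCODE M21 (GRCm38). Windows were read from its transcripts. Positions reaching 10 counts in 3 or more libraries were tested by count (edgeR quasi-likelihood, TMM), relative to an offset from the gene's remaining counts (50 or more), and by log2 Nm score with 0 set to 1 (limma). All 9 libraries entered each fit, and Benjamini-Hochberg adjustment ran over all positions tested, with a threshold of 0.05. The members named were the 12 with the highest sum, the 3 with the smallest p of each contrast by count, those in repeated rows (up to 4 a group), those next to the threshold, the 3 highest Nm scores and up to 3 of each gene list. The edgeR test by count was tested on simulated data for the average contrast only. PCR copies are not marked, so limits cover counting error only. R 4.3.3, edgeR 4.0.16, limma 3.58.1, DESeq2 1.42.0 and Python were used. Some members are not reported here.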

Additional observations from a re-analysis of the deposited data

How the results depend on the processing

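No member was called in 191 of 191 alternative fits by edgeR and limma, which covered normalization, filters, positions fitted, offsets, the neighbors and pseudocount behind Nm scores, blocking on replicate number, and leaving out each library (range 0 to 0). DESeq2 called 3, 1, 6 and 1 members by count in the average, Snord67KO-1, Snord67KO-2 and between-clone contrasts. The replicate block gave 0 called members in every contrast and test. Same-numbered libraries correlated between −0.563 and 0.739 in their deviations from the group means, over 0.1 in 3 of 9 pairs. The deviations of the 3 libraries of a group sum to 0, so these correlations cannot settle whether the numbers pair the libraries. Under the block, the average contrast had 8 higher and 15 lower members at an unadjusted p under 0.05, in place of 10 and 42. By library size only it had 2 and 113, where the median of all positions was −0.48 in place of −0.17. With TMM factors from unmarked positions outside Rn45s it had 25 and 41. Other scalings were not run for the within-gene test, since its offset replaces the library size. A threshold of 50 counts gave 1586 members and 200 gave 333. Repeated groups numbered 10 when rows within 5% had to share 12 bases, and 79 without that condition (added after the data were seen). Linker-like members were 7.39% at 5 of 6 bases and 58.6% with GCACC counted (also added). Over unmarked positions outside Rn45s, members took 46.4%, 36.8% and 44.7% of the counts in WT, Snord67KO-1 and Snord67KO-2, respectively. The low depth of Snord67KO-2 replicate 1 (212463 counts) limits values of a few counts.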
